A study of Mus musculus with 22 samples.

Results

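Imprinted genes are expressed from 1 parental allele, and a small class of them lies inside the introns of other genes. Many of these are retrogenes, copies made from the RNA of an X-linked or autosomal parent gene. In this class the internal promoter carries methylation on the maternal allele that was laid down in the oocyte, and the unmethylated paternal allele is transcribed, while the promoter of the surrounding host gene is unmethylated on both alleles. An intact internal promoter therefore reads close to the middle of the scale in bulk DNA, and a host promoter reads close to 0. The methylated copy is kept through the reprogramming of the early embryo by the zinc finger protein ZFP57, which binds the methylated sequence TGCCGC.

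The 9 genes described here form 5 such pairs. They are Mcts2, a retrogene related to a translation re-initiation factor, in H13, which encodes the signal peptide peptidase, Nnat, the proteolipid neuronatin of developing neurons, in the bladder cancer-associated gene Blcap, and a short internal transcript of the phosphoinositide phosphatase gene Inpp5f. The others are Nap1l5, a retrogene of the nucleosome assembly protein family, in the ubiquitin ligase gene Herc3, and Zrsr1, a retrogene related to a splicing factor subunit, in Commd1, a gene of copper handling and NF-kB control. Members were the CpGs that 1 or more libraries covered with 10 or more reads on a strand and that lay within 5 kb of any RefSeq start site of these genes. There were 591 of them among 2095436 CpGs in the series, 184 nearest to an internal start, 308 nearest to the main host start and 99 nearest to another host start. Only 77 of the 591 were covered in all 22 samples, 47 of them at internal starts and 30 at host starts.

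The samples were forebrains of E10.5 wild type C57BL/6 embryos, 6 control and 16 EtOH-exposed, with 1 embryo per library. The study's methods give males and females in each group. The labels used here do not give the sex of an embryo, so the sexes were pooled. The dams had received saline or ethanol under the skin while their embryos were at a pre-implantation stage. DNA methylation was read by rapid reduced representation bisulfite sequencing (rRRBS), in which DNA is cut at CCGG by MspI, selected by size and converted with bisulfite, so that each CpG gives a share of reads that kept a methylated cytosine. Maternal and paternal alleles cannot be told apart in an inbred strain, the study's methods give fewer litters than embryos in each group, and the labels do not say which embryos shared a litter, so p values that treat embryos as separate may be too small. The forebrain label could not be checked against marker expression because no RNA was measured.

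The libraries differed in ways that bear on these promoters. Control libraries held 68126469 to 132488556 cytosine calls and EtOH-exposed libraries 89179413 to 216223892. The level at 39343 tiles with a median under 1% over the samples, where incomplete conversion would also count as methylation, was 0.672 to 1.52% in controls and 0.260 to 2.54% in EtOH-exposed libraries. A coverage coefficient was computed for each library as the slope of log2 coverage, relative to the control libraries, on the control methylation level over 6416 MspI fragments, with length, GC content and CpG number held constant. It lay between -0.22 and 0.36 in controls and between -2.88 and 0.11 in EtOH-exposed libraries, and a negative value means that methylated fragments were less covered. Embryos 4, 5, 6 and 14 of the EtOH-exposed group had the lowest coefficients, -2.52, -2.53, -2.88 and -2.01, so results are also given without these 4 libraries.

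The sequences below are the MspI fragments that carried the levels. One fragment is shown for each internal promoter, and 2 fragments of host promoters stand beside them for contrast. Capitals mark TGCCGC on either strand, which is written GCGGCA where it lies on the other strand. The sequences are those of the GRCm38 reference, the build of the deposited coordinates, and are written 5′ to 3′ on the strand of the transcript. The Mcts2 fragment lies at chr2:152686853-152686981 on the plus strand, in an H13 exon and outside any coding sequence. The Nnat fragment lies at chr2:157560310-157560479 on the plus strand, in intron and coding sequence of Nnat within the Blcap intron. The fragment of the Inpp5f short transcript lies at chr7:128688217-128688348 on the plus strand, in an Inpp5f intron. The Nap1l5 fragment lies at chr6:58906767-58906879 on the minus strand, in Nap1l5 coding sequence within a Herc3 intron, and the Zrsr1 fragment at chr11:22971901-22972001 on the plus strand, in a Commd1 intron. The host fragments are intronic, in Blcap at chr2:157566027-157566128 on the minus strand and in Inpp5f at chr7:128611769-128611877 on the plus strand.
Mcts2 -275 to -178: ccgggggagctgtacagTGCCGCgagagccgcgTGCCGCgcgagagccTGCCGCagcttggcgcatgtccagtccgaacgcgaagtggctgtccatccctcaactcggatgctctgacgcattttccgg
Nnat +253 to +391: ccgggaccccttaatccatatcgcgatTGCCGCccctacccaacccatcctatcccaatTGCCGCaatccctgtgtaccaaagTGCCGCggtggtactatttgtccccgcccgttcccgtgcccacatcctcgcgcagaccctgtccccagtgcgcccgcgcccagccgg
Inpp5f short transcript -637 to -570: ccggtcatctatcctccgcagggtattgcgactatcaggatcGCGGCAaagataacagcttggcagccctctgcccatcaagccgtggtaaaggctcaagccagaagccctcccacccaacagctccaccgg
Nap1l5 +261 to +348: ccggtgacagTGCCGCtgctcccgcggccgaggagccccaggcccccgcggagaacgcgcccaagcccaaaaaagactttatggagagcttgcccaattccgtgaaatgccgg
Zrsr1 -53 to -23: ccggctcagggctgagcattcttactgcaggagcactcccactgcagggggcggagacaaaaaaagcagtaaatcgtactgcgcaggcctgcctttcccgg
Blcap +241 to +315: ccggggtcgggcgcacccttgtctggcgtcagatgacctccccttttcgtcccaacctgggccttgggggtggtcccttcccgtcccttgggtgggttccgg
Inpp5f +411 to +500: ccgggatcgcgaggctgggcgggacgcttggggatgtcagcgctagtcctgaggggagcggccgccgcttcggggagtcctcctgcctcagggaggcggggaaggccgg
The name of each fragment gives the distances from the start site to its first and last measured CpG, in bp. TGCCGC occurred 8 times in 4 of the 10 measured fragments of internal promoters, 3 times each in the Mcts2 and Nnat fragments and once each in those of the Inpp5f short transcript and Nap1l5, and 0 times in the other 6, which were 4 at Zrsr1, the proximal one at Mcts2 and the distal one at Nnat. It occurred in 0 of 6 host fragments and in 0 of 1 fragment at another Commd1 start. Of 158690 MspI fragments of 100 to 200 bp on the autosomes, 5.15% held it. In the 300 bases around the start sites that RefSeq gives for the 9 genes, Nap1l5 held 2 copies and Mcts2, Nnat and Commd1 1 copy each, beside 11.6% of 32851 RefSeq promoters with at least 1 copy. The Herc3 window, at chr6:58833450-58833749, lay at another start than the host promoter used here. The start of the Inpp5f short transcript had no window. A match describes the letters in these windows only.

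Levels at the internal promoters were above those at the main host promoters, by under 1 point in the closest case. Promoter levels were means over the CpGs within 1 kb of a start site that were covered in all 22 samples, or, for the Inpp5f short transcript and Nap1l5, in at least 5 samples of each group. In controls the 5 internal promoters averaged 42.4 to 54.9%, and the 3 host promoters with enough CpGs, Blcap, Herc3 and Inpp5f, averaged 0.844 to 1.19%. The start sites of a pair lie 6283 bp apart for Nnat and Blcap, 10279 bp for Zrsr1 and Commd1, 17687 bp for Mcts2 and H13, 75661 bp for Nap1l5 and Herc3 and 77505 bp within Inpp5f. Mcts2 and the Inpp5f short transcript run in the direction of their host, and Nnat, Nap1l5 and Zrsr1 run against it.

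Per embryo, Nnat exceeded Blcap by 34.6 ± 22.1 percentage points (SD, n = 22), from 2.06 points in the lowest embryo to 86.0 points in the highest. The Inpp5f short transcript exceeded the upstream Inpp5f promoter by 23.9 ± 18.1 points (SD, n = 20), with a range of 0.873 to 72.2 points. Nap1l5 exceeded Herc3 by 40.7 ± 17.8 points (SD, n = 21), with a range of 6.22 to 68.2 points. The difference was positive in 22 of 22, 20 of 20 and 21 of 21 embryos, and a two-sided permutation test of sign changes gave p = 1e-05 for each pair, the smallest value that 100000 sign changes can give.

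The H13 and Commd1 promoters had too few shared CpGs for this measure, so their reads were summed over every covered CpG within 1 kb. H13 then read 0.0 to 7.38% in the 19 samples with a value, from 1 to 58 CpGs each, and Commd1 0.173 to 2.40% in 22 samples, from 8 to 28 CpGs. On this footing Mcts2 exceeded H13 by 34.8 ± 17.9 points (SD, n = 19) and Zrsr1 exceeded Commd1 by 47.1 ± 11.4 points (SD, n = 22), positive in 19 of 19 and 22 of 22 embryos, with p = 1e-05 in the same permutation test. This Commd1 start, at chr11:22982284, was the more upstream of 2 with 1 curated transcript each, and against the other, at chr11:22972866, Zrsr1 was the lower in 15 of 21 embryos, by a mean difference of -8.47 ± 11.9 points (SD, n = 21). Over 5 kb, the distance that chose the members, H13 read up to 49.5%, and the Mcts2 promoter was the higher in 15 of 19 embryos. Only control 6 and EtOH-exposed embryos 4, 5, 6 and 16 had H13 CpGs beyond 1 kb, so the other values repeat those at 1 kb. Of these embryos, Mcts2 was the higher only in embryo 6, with 8.37% beside 8.32% at H13. Mcts2 was the lower in control 6, with 48.7% at H13 beside 32.6%. It was also the lower in EtOH-exposed embryos 4, 5 and 16, with 12.02, 12.2 and 49.5% at H13 beside 10.8, 9.80 and 32.02%.

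**Figure D1:**
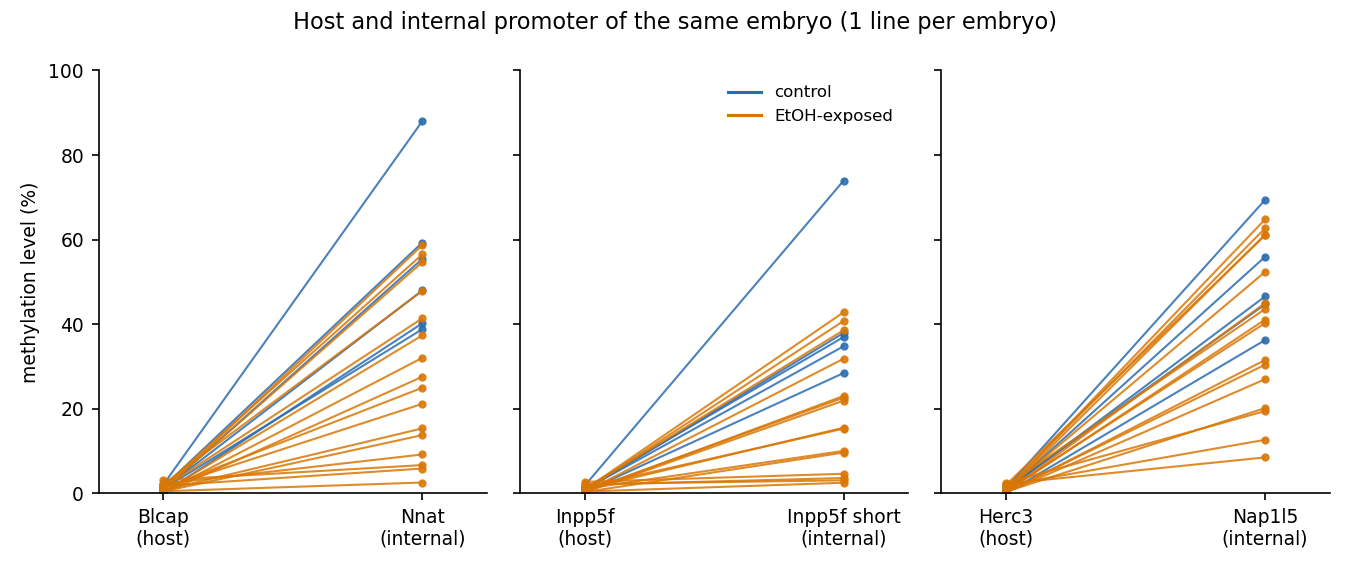
Methylation level (%) at the host promoter and at the internal promoter of the 3 pairs with shared CpGs, with 1 line per embryo and color by group. Each line rises from a host level under 4% to a higher internal level, which ranges from 2.47 to 88.0%.

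The plot of host and internal promoters shows that the embryos fan out on the internal side. The host levels stayed within 0.0 to 3.11% at Blcap, 0.0 to 2.43% at Herc3 and 0.198 to 2.68% at Inpp5f. The difference between groups at host promoters was 0.067 points at Blcap (95% interval -0.744 to 0.881, exact permutation p = 0.866), 0.107 points at Herc3 (-0.649 to 0.864, p = 0.773) and -0.216 points at Inpp5f (-0.948 to 0.517, p = 0.548).

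Nnat had a lower mean level in EtOH-exposed embryos than in controls. In controls its 15 CpGs, at +253 to +399 bp of the start at chr2:157560078, read 59.3, 88.0, 38.8, 48.0, 55.4 and 40.2% in embryos 1 to 6. In EtOH-exposed embryos the lowest value was 2.52%, the median 26.2% and the highest 58.7%. The groups overlapped, and 11 of 16 EtOH-exposed embryos lay below all controls while 0 lay above all of them. Controls averaged 54.9 ± 18.1% (SD, n = 6) and EtOH-exposed embryos 28.4 ± 19.2% (SD, n = 16), a difference of -26.5 points (95% interval -45.4 to -7.56, exact two-sided permutation p = 0.00862 over 74613 splits). The highest control, embryo 2, rested on a mean of 10 reads per CpG, which alone gives a 95% Wilson interval of 59.6 to 98.2%, and without it the difference was -19.9 points (exact p = 0.0403).

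The Inpp5f short transcript start at chr7:128688870 was measured by 6 CpGs at -637 to -524 bp in 5 controls and 15 EtOH-exposed embryos. Controls read 74.0, 37.9, 37.0, 34.8 and 28.4% in embryos 1, 3, 4, 5 and 6. EtOH-exposed embryos read 2.47% at the lowest, 15.5% at the median and 42.8% at the highest, and 11 of 15 lay below the lowest control. Controls averaged 42.4 ± 18.02% (SD, n = 5) and EtOH-exposed embryos 19.03 ± 14.1% (SD, n = 15), a difference of -23.4 points (95% interval -39.7 to -7.06, exact permutation p = 0.00787). Control 1 rested on a mean of 16 reads per CpG, and without it the difference was -15.5 points (exact p = 0.0524).

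Mcts2, Nap1l5 and Zrsr1 were lower on average in the EtOH-exposed group by amounts that did not pass the test. At Mcts2, with 25 CpGs at -294 to -7 bp of chr2:152687148, controls read 32.6, 41.4 and 79.7% at the lowest, median and highest, and EtOH-exposed embryos 8.37, 33.3 and 53.6%. Controls averaged 46.3 ± 17.4% (SD, n = 6) and EtOH-exposed embryos 31.5 ± 15.5% (SD, n = 16), a difference of -14.9 points (95% interval -31.0 to 1.18, exact permutation p = 0.0675), with 8 of 16 EtOH-exposed embryos below the lowest control. The difference depended on control 2, at 79.7% from a mean of 30 reads per CpG, and was -8.20 points without it (exact p = 0.272). Without control 6, or EtOH-exposed embryo 7 or 13, it was -17.6, -16.3 or -16.1 points (exact p = 0.0478, 0.0433 and 0.0487).

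At Nap1l5, 11 CpGs at +249 to +358 bp of chr6:58907126 read 69.4, 44.7, 46.5, 55.9 and 36.2% in controls 1, 3, 4, 5 and 6. EtOH-exposed embryos ranged from 8.46 to 64.8% with a median of 40.7%, and 7 of 16 lay below the lowest control. Controls averaged 50.5 ± 12.6% (SD, n = 5) and EtOH-exposed embryos 38.8 ± 18.4% (SD, n = 16), a difference of -11.7 points (95% interval -30.4 to 6.85, exact permutation p = 0.203), which was -7.01 points without control 1 (exact p = 0.475). At Zrsr1, 7 CpGs at -103 to +259 bp of chr11:22972005 read 40.2, 56.2 and 65.2% in controls and 29.2, 48.8 and 60.6% in EtOH-exposed embryos at the lowest, median and highest. Controls averaged 54.7 ± 8.18% (SD, n = 6) and EtOH-exposed embryos 46.2 ± 10.7% (SD, n = 16), a difference of -8.52 points (95% interval -18.7 to 1.60, exact permutation p = 0.0933), with 5 of 16 below the lowest control. Without control 6 it was -11.4 points (exact p = 0.0311). Control 6, at 40.2% from a mean of 30 reads per CpG, also set the count of embryos below the controls. The next control read 53.2%, and EtOH-exposed embryos 1, 7, 8, 9, 11 and 16 lay between these levels.

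**Figure D2:**
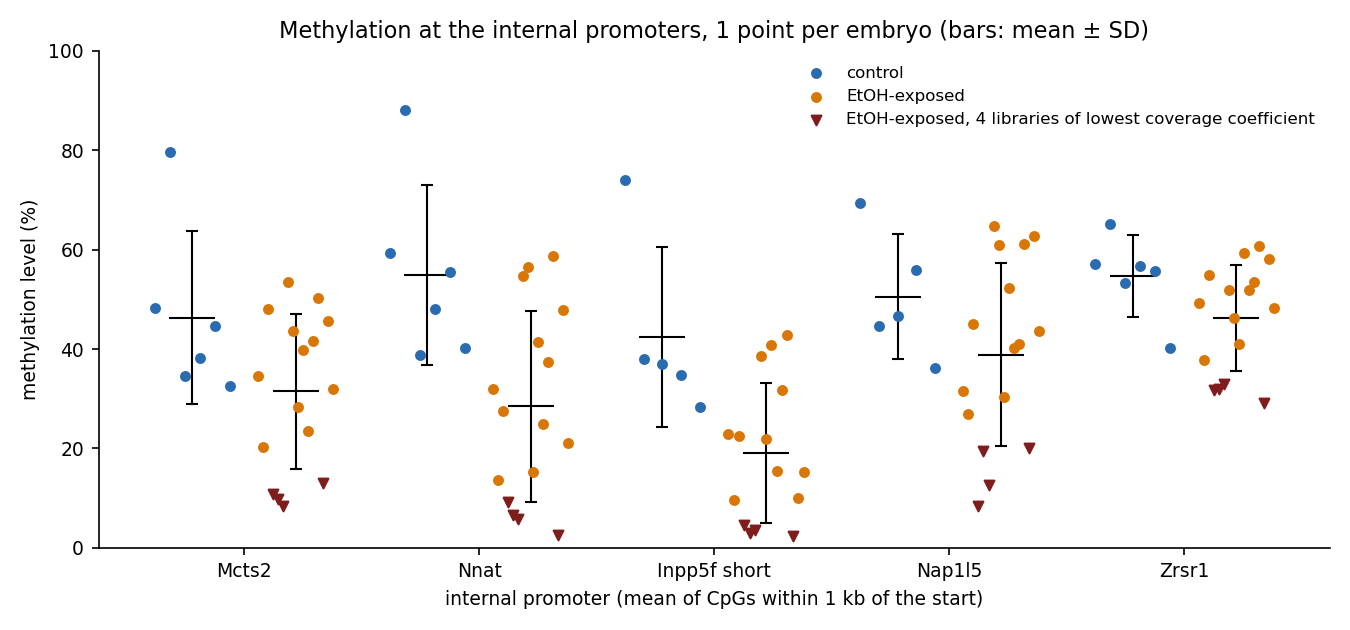
Methylation level (%) per embryo at the 5 internal promoters in the control and EtOH-exposed groups, with group mean ± SD, where triangles mark the 4 libraries with the lowest coverage coefficients. The triangles lie at the bottom of each EtOH-exposed group, at 2.47 to 32.9%, and 0 EtOH-exposed embryos lie above the highest control.

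The plot of levels by embryo shows that the same 4 embryos formed the bottom of the EtOH-exposed group at Mcts2, Nnat, the Inpp5f short transcript, Nap1l5 and Zrsr1. At the top, the highest control was control 2 at Mcts2, Nnat and Zrsr1 and control 1 at the others. Above the next control lay EtOH-exposed embryos 7 and 13 at Mcts2 and 10, 13 and 15 at Zrsr1. So did 7, 10 and 13 at the Inpp5f short transcript and 7, 8, 13 and 15 at Nap1l5, but none at Nnat. Controls 1 and 2 also had the highest coverage coefficients among controls, 0.105 and 0.361, and the highest control levels at unmethylated tiles. The group differences without both of them were not computed. Across all promoters that could be tested in 22 samples, the same test gave a raw p under 0.05 with a lower EtOH-exposed level at 2.18% of 7970, and at 33.8% of the 130 with 30 to 70% methylation in controls. Among the 5 internal promoters, 2 had such a p, and 1 of them, Nnat, was in the set of 7970. After Benjamini-Hochberg adjustment over the 7970, the adjusted p was 1.0 for Nnat, Mcts2 and Zrsr1 and for the 3 host promoters, and 0 promoters in the genome passed 0.05, while 191 had a raw p under 0.05. Of the 130 promoters in the middle range, 125 were lower in EtOH-exposed embryos, and the median difference over the 130 was -4.90 points.

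The spread between embryos was measured as the mean distance from the group median. It was 12.6 points in controls and 16.04 points in EtOH-exposed embryos at Nnat (exact permutation p = 0.506), and 11.2 and 13.2 points at Mcts2 (p = 0.671). It was 9.74 and 11.5 points at the Inpp5f short transcript (p = 0.745), 8.88 and 15.1 points at Nap1l5 (p = 0.224), and 4.97 and 8.78 points at Zrsr1 (p = 0.219). By this measure the EtOH-exposed value was the larger at each of the 5 promoters, but no difference passed the test. Distances from a group's own median tend to run lower in a smaller group, here the controls. The permutation moved distances fixed from the true groups, so its p values do not correct for this. The direction depended on the measure. The SD was larger in controls at Mcts2 (17.4 against 15.5 points) and the Inpp5f short transcript (18.02 against 14.1 points). It was larger in EtOH-exposed embryos at Nnat, Nap1l5 and Zrsr1. In the library group the direction turned at Mcts2, Nnat, Nap1l5 and Zrsr1, with -3.49, -0.860, -1.39 and -0.459 points. Without the 4 libraries of lowest coefficient it turned at Mcts2 and the Inpp5f short transcript, with -2.55 and -0.217 points. Single controls also decided it, since without control 3, 4 or 5 the excess at the Inpp5f short transcript was -0.401, -0.643 or -0.0979 points, and without control 2 that at Mcts2 was 8.04 points (exact permutation p = 0.0387).

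Low levels came together in the same embryos. EtOH-exposed embryos 2, 4, 5, 6 and 14 were below the lowest control at all 5 internal promoters, and embryos 7, 8, 10 and 13 at none of those measured. Of the other embryos, 1 was below at 4 promoters, 3 at 3, 1 at 2 and 2 at 1. These counts rest on control 6, which was the lowest control at Mcts2, the Inpp5f short transcript, Nap1l5 and Zrsr1. The lowest of the other controls there read 34.6, 34.8, 44.7 and 53.2%. Against these values, and 38.8% at Nnat, embryos 9, 11 and 16 were also below at all 5. Embryos 7 and 8 were then below at Zrsr1. In embryo 14, Nnat read 2.52%, the Inpp5f short transcript 2.47%, Mcts2 12.96%, Nap1l5 20.1% and Zrsr1 29.2%. In embryo 13, by contrast, the values were 58.7, 42.8, 50.3, 61.2 and 60.6% in the same order. Embryo 15 was low at 1 promoter alone, with 10% at the Inpp5f short transcript and 45.6 to 62.7% at the other 4.

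**Figure D3:**
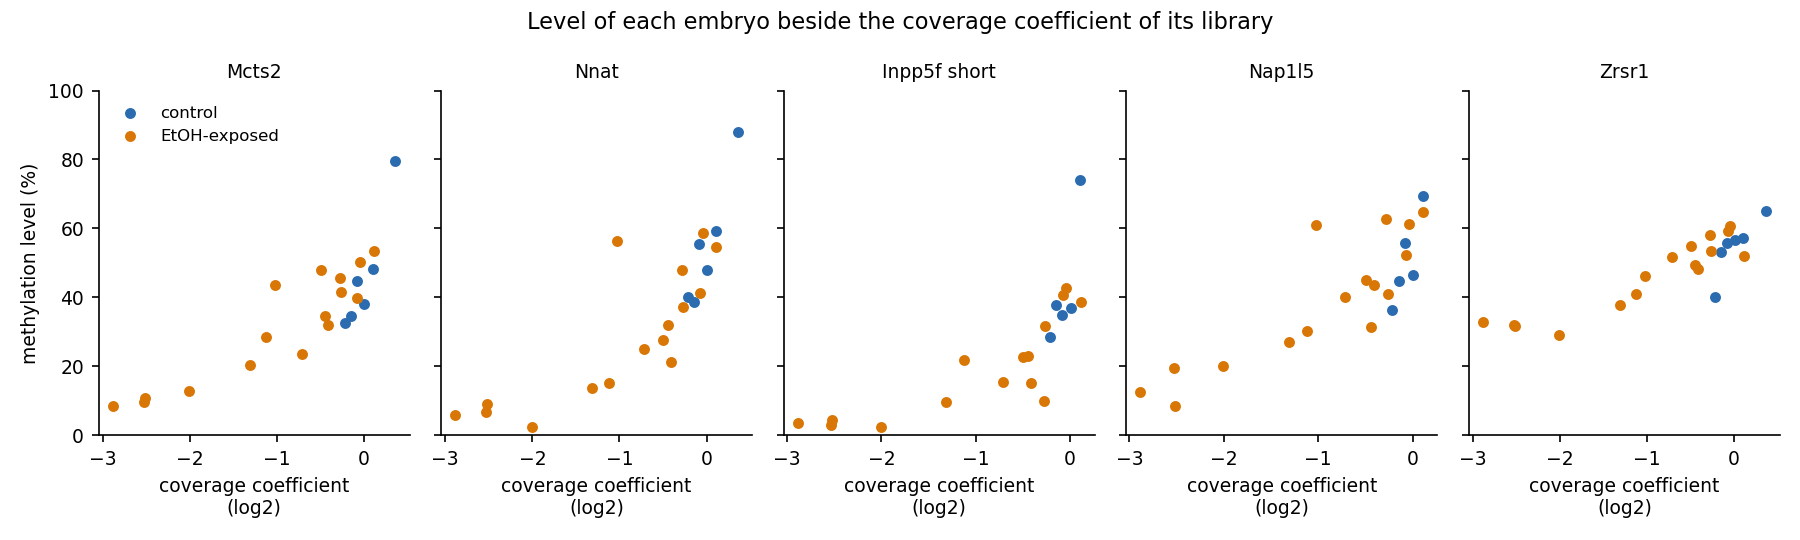
Methylation level (%) at each internal promoter against the coverage coefficient of the library (log2 coverage per unit of methylation level), with 1 point per embryo and color by group. The 4 embryos at -2.88 to -2.01 have the 4 lowest levels of all embryos at each promoter, at 2.47 to 32.9%.

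The plot of level beside coverage coefficient shows that the 5 embryos below all controls at all 5 promoters had the 5 lowest coefficients in the series. The last of these was embryo 2 at -1.31. Embryo 9, at -1.12, was below at 4 promoters, but embryo 8, at -1.02, was below at 0 of the 4 measured. Embryos 1, 3, 11 and 16, at -0.447, -0.495, -0.714 and -0.413, were below at 3, 2, 3 and 3. With control 6 left out of the cut, embryos 9, 11 and 16 were also below at all 5. The 4 lowest libraries averaged 6.04 ± 2.74% at Nnat (SD, n = 4), 3.42 ± 0.903% at the Inpp5f short transcript, 10.5 ± 1.93% at Mcts2, 15.2 ± 5.603% at Nap1l5 and 31.5 ± 1.60% at Zrsr1. The other 12 EtOH-exposed libraries averaged 35.9 ± 15.98% at Nnat (SD, n = 12), 24.7 ± 12.1% at the Inpp5f short transcript (n = 11), 38.5 ± 10.7% at Mcts2, 46.7 ± 13.5% at Nap1l5 and 51.1 ± 7.02% at Zrsr1. The part of the coverage of methylated fragments in these levels was not tested.

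Without the 4 libraries, a choice made after the values had been seen, the difference was -19.01 points at Nnat (exact permutation p = 0.0359), -17.7 points at the Inpp5f short transcript (exact p = 0.0295), -7.87 points at Mcts2 (exact p = 0.258), -3.83 points at Nap1l5 (exact p = 0.593) and -3.62 points at Zrsr1 (exact p = 0.342). In the library group the difference was -11.4 points at Nnat (exact p = 0.253) and -15.3 points at the Inpp5f short transcript (exact p = 0.139). It was -5.12 points at Mcts2 (exact p = 0.582), -0.922 points at Zrsr1 (exact p = 0.813) and 4.56 points at Nap1l5 (exact p = 0.484). With the coefficient as a covariate it was -9.84 points at Nnat (permutation p = 0.168) and -12.4 points at the Inpp5f short transcript (permutation p = 0.0560), and it changed sign at Mcts2, Nap1l5 and Zrsr1.

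A level is a ratio, so the methylated and unmethylated reads were also scaled separately, as reads per CpG per 1000000 calls of the library. At Nnat, methylated reads averaged 0.566 in controls, 0.0501 in the 4 libraries and 0.573 in the other 12, and unmethylated reads 0.592, 0.782 and 0.719. At the Inpp5f short transcript, methylated reads averaged 0.225 in controls, 0.0217 in the 4 libraries and 0.130 in the others, and unmethylated reads 0.360, 0.604 and 0.364. Methylated reads were thus lowest in the 4 libraries at both, and at Nnat the other 12 libraries matched controls in the mean of methylated reads while spreading from 0.0490 to 1.79. Mcts2 gave 1.01, 0.276 and 1.42 methylated and 1.51, 2.38 and 2.22 unmethylated reads in the same order. Nap1l5 gave 0.563, 0.172 and 0.556 methylated and 0.560, 0.978 and 0.680 unmethylated reads, and Zrsr1 0.518, 0.368 and 0.668 methylated and 0.516, 0.952 and 0.753 unmethylated reads.

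Over all 16 EtOH-exposed libraries, the test of scaled methylated reads against controls passed at the Inpp5f short transcript, with 0.225 ± 0.128 in controls (SD, n = 5) and 0.101 ± 0.0915 in EtOH-exposed embryos (SD, n = 15, exact permutation p = 0.0262). Scaled unmethylated reads were higher in EtOH-exposed embryos at Zrsr1, 0.803 ± 0.253 against 0.516 ± 0.283 (SD, n = 16 and 6, exact permutation p = 0.0328). They were also higher at the unmethylated host promoter Herc3, 1.42 ± 0.431 against 0.769 ± 0.522 (exact permutation p = 0.00767). These were 3 of 16 tests with a raw p under 0.05, with no adjustment.

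In tiles of 100 bp, the unit of the study's own test, 10 tiles at internal starts were called. Called tiles had a Benjamini-Hochberg q under 0.01 over all tiles in a logistic model together with a difference of 10 points or more between the groups, weighted by coverage. Of 29 member tiles 10 were called, all lower in EtOH-exposed embryos, where 1.14% of all 114430 tiles were called and 1.08% were called lower. The 10 were among 16 internal tiles, and 0 of 4 tiles at other host starts were called. The 9 host tiles read at most 1.48% in controls and so could not fall by 10 points, and 0 of them were called higher. Among the 5429 tiles at 30 to 70% in controls, 15% were called lower, and of the 14 internal tiles in that range 9 were. All 16 internal tiles were lower, by a median difference of -11.96 points and from -21.2 to -3.82 points. Of the 5429 tiles, 4588 were lower, with a median of -4.25 points. Neighboring tiles on 1 fragment share reads, as at Mcts2 and Nnat, so the 16 tiles are not separate observations.

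By promoter, 4 of 5 tiles were called at Nnat, 2 of 2 at Nap1l5, 2 of 4 at Zrsr1, 1 of 4 at Mcts2 and 1 of 1 at the Inpp5f short transcript. The called tile with the largest difference lay at chr7:128688201-128688300 for the Inpp5f short transcript, with 46.7 ± 16.9% in controls (SD, n = 5), 23.2 ± 13% in EtOH-exposed embryos (SD, n = 15) and a weighted difference of -21.2 points. At Nap1l5 it lay at chr6:58906701-58906800, with 58.9 ± 10.9% (SD, n = 5), 46.9 ± 17.1% (SD, n = 15) and -19.6 points. At Nnat it lay at chr2:157560401-157560500, with 55.5 ± 18.7% (SD, n = 6), 28.7 ± 19.5% (SD, n = 16) and -14.5 points. The tiles at Mcts2 and Zrsr1, chr2:152687101-152687200 and chr11:22972001-22972100, differed by -11.94 and -11.99 points.

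The logistic model estimates no spread between embryos. With that spread estimated for each tile, by an F test for overdispersion or by limma, 0 member tiles were called, and 0.0% of all tiles were called by the F test. At a raw p under 0.05 the F test gave 3 of the 16 internal tiles, beside 5.77% of all tiles and 14.7% of those at 30 to 70% in controls. Limma gave 7 of the 16, beside 4.45% of all tiles, and the exact permutation test, run at member tiles alone, gave 6. No share at 30 to 70% was computed for limma, and no share over other tiles for the exact test. These counts therefore cannot be set against tiles of like level. Without the 4 libraries of lowest coefficient, 3 of 29 member tiles were called by the logistic test, beside 380 of 114396 tiles in all (0.332%). With the coefficient as a covariate 2 of 29 were called, 0 of them lower, beside 482 of 114430 in all (0.421%), of which 98 were lower.

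**Figure D4:**
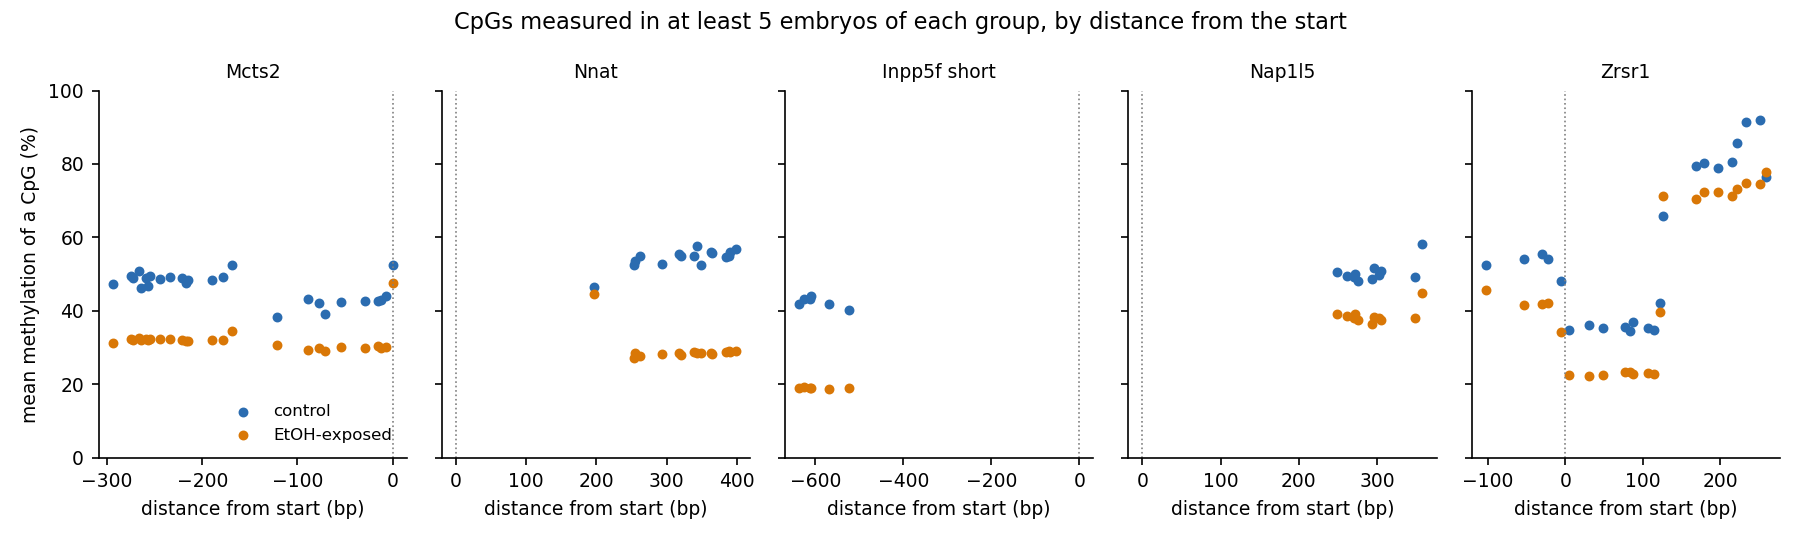
Mean methylation level (%) of each CpG by distance from the start site (bp) at the 5 internal promoters, with the control and EtOH-exposed groups in separate colors. Neighboring CpGs on a fragment have similar means, and the steps between levels fall between fragments, as at Zrsr1, from 35.4% to 91.6% in controls.

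The plot of single CpGs shows flat stretches broken by steps. At Nnat the 14 CpGs from +253 to +391 bp averaged 52.5 to 57.7% in controls and 27.1 to 29.2% in EtOH-exposed embryos. At Mcts2 the fragments at -275 to -178 and -89 to -7 bp averaged 48.7 ± 20.9% and 42.4 ± 12.02% in controls (SD, n = 6), and 32.2 ± 18.4% and 29.9 ± 13.6% in EtOH-exposed embryos (SD, n = 16). The exception was the Nnat fragment at -1883 to -1799 bp, in a Blcap exon, whose CpGs averaged from 52.3 to 84.5% in controls. As a fragment it read 70.6 ± 2.12% in controls (SD, n = 5) and 67.9 ± 11.9% in EtOH-exposed embryos (SD, n = 15), a difference of -2.65 points (exact permutation p = 0.632).

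Zrsr1 was a mosaic of levels within a short distance. Its fragment just upstream, at -53 to -23 bp, read 54.5 ± 14.1% in controls (SD, n = 6), and the next, at +5 to +115 bp, 35.4 ± 7.04% (SD, n = 5). The following fragments, at +179 to +215 and +233 to +251 bp, read 79.9 ± 18.7% and 91.6 ± 7.11% (SD, n = 5), well above the middle of the scale. The EtOH-exposed means were 41.8 ± 12.8, 22.9 ± 9.44, 72.1 ± 16.2 and 74.6 ± 17.7% (SD, n = 16) in the same order. The differences of -12.7, -12.5, -7.88 and -17.04 points had exact permutation p values of 0.0565, 0.0142, 0.369 and 0.0508. The fragments at +179 to +215 and +233 to +251 bp were only 57 and 41 bp long. At the first of them the controls were split, with 60.8 and 58.2% in controls 1 and 2 and 94.4, 95.03 and 91.2% in controls 3, 4 and 5.

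Another Commd1 start lies 861 bp from that of Zrsr1 on the opposite strand, inside the Zrsr1 exon. Its 15 CpGs read 37.5 to 69.2% in 5 controls and 25.4 to 83.5% in 16 EtOH-exposed embryos, with 4 embryos below and 4 above the controls. The means were 58.3 ± 12.5 and 55.5 ± 19.7%, a difference of -2.82 points (95% interval -22.7 to 16.98, exact permutation p = 0.769). It is thus a host start at an intermediate level, unlike the main Commd1 start, 10279 bp from Zrsr1, at 0.173 to 2.40%.

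**Figure D5:**
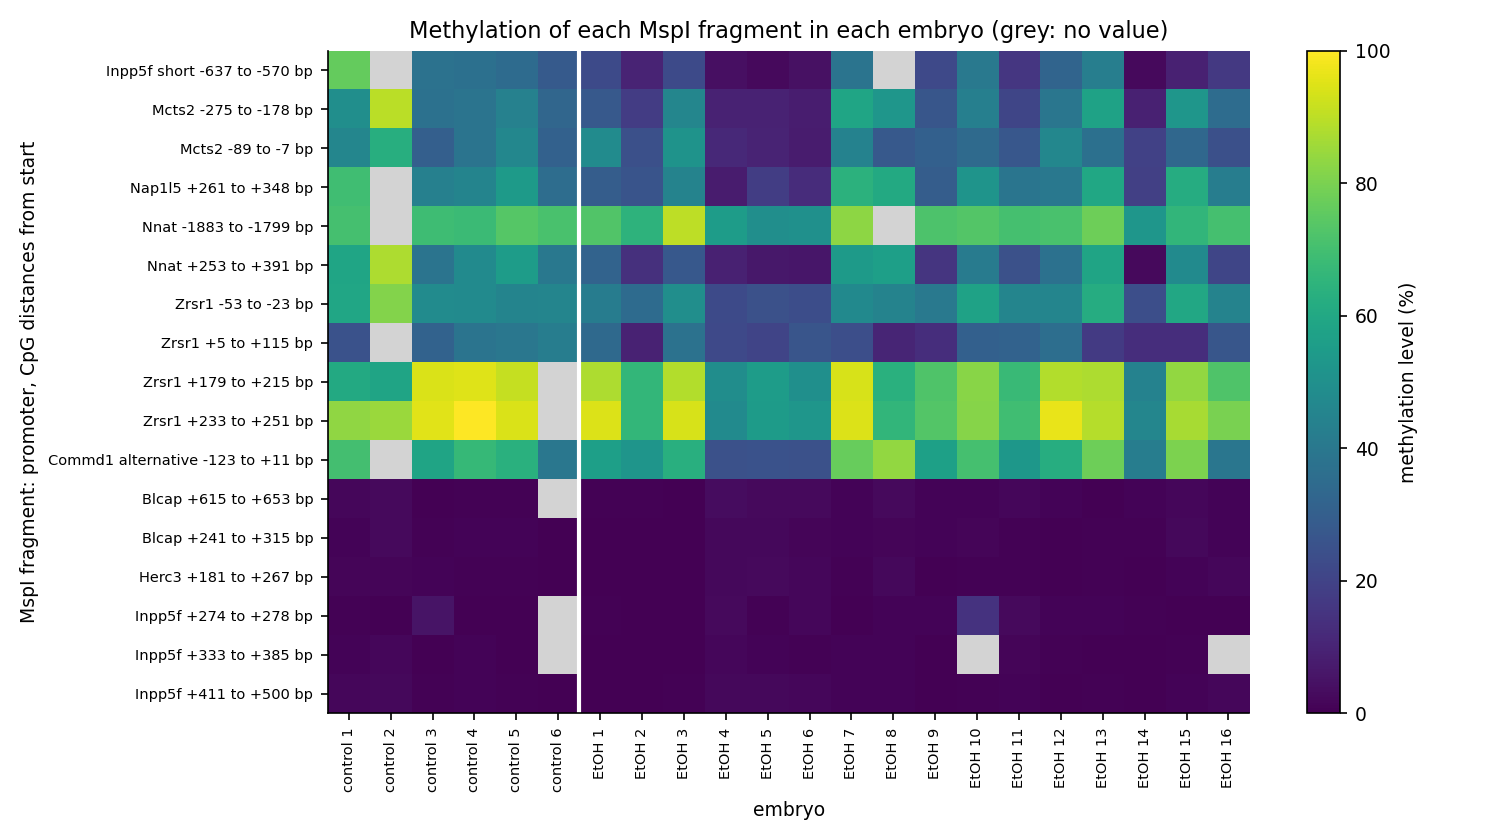
Methylation level (%, color scale) of 17 MspI fragments at internal, host and other host starts (vertical axis) in the 22 embryos (horizontal axis), with gray where a fragment had no value. The 6 host fragments have control means of 0.767 to 1.24%, with a highest single value of 14.7% in an Inpp5f fragment, and the 10 internal fragments have control means of 35.4 to 91.6% and are lower on average in EtOH-exposed embryos.

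The map of fragments shows that the lowest columns are low along most internal fragments of the same embryo, though not equally. This was followed at 2 neighboring fragments with values in fewer than 5 controls, which were chosen after their values were seen and are given with no test. At Nnat, 13 CpGs at +28 to +170 bp were covered in 4 controls and 13 EtOH-exposed embryos. They read 53.3 ± 11.1% in controls (SD, n = 4), beside 45.5 ± 7.79% at the +253 to +391 bp fragment in the same embryos. In the EtOH-exposed embryos they read 47.3 ± 23.2% (SD, n = 13), beside 27.3 ± 19.4%, and the proximal fragment was the higher of the pair in 13 of 13, by a margin within rounding in embryo 1, where both read 31.9%. It was the higher in 3 of the 4 controls, the exception being control 6 with 36.7% beside 40.1%. The tile at chr2:157560201-157560300, which holds part of these CpGs, was called by the logistic test with a weighted difference of -14.01 points, while its means over embryos were 50.4 ± 9.26% (SD, n = 6) and 46.4 ± 22.1% (SD, n = 13, exact permutation p = 0.673). In embryo 14 the proximal fragment read 33.9% where the other read 2.53%, in embryo 4 28.9 and 9.20%, in embryo 5 14.02 and 6.60% and in embryo 6 17.6 and 5.86%.

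At the Inpp5f short transcript, 6 CpGs at -779 to -663 bp read 43.5, 45.6 and 46.4% in controls 3, 5 and 6, beside 37.8, 35.1 and 28.2% at the -637 to -570 bp fragment. In 8 EtOH-exposed embryos the more distal fragment read 35.3 ± 19.6% (SD, n = 8), with a range of 12.8 to 62.6%, beside 12.6 ± 11%, and was the higher in 8 of 8. In embryo 11 it read 62.6% beside 15.8%. The measured level of 1 embryo therefore differed between neighboring fragments of the same promoter, and the part of fragment coverage in this was not tested.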

How the data were processed

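The deposited tables give, for each cytosine of a CpG and by strand, a count of covering reads, with no normalization, and the percent of them called methylated or unmethylated, to 1 decimal, as the authors wrote it. The submitters' processing notes name Trim Galore 0.3.3 and BSMAP 2.90 as tools and mm10 as the build. The deposited positions lay at CpGs of GRCm38 on the autosomes, so its RefSeq annotation was used. The product of coverage and percent, taken to the nearest whole number, gave the methylated reads.

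On each strand, CpGs needed 10 or more reads, and the strands that passed were added. Tiles of 100 bp with at least 2 CpGs, in at least 5 samples per condition, were tested on chromosomes 1 to 19 in a logistic model by likelihood ratio, with Benjamini-Hochberg adjustment over 114430 tiles. Each embryo gave 1 level per promoter, and the groups were tested by exact two-sided permutation, whose 95% intervals came from inverting the test. With the coefficient as a covariate, the residuals were permuted. Start sites within 500 bp were merged into 16 clusters, and a CpG near several went to the nearest. Host promoters were the clusters with the most curated transcripts, the more upstream in a tie, which occurred at Commd1, and the tile named for a promoter was the called one with the largest difference, or else the one with the smallest p. The members, lists and tests were chosen with earlier results of these data known. The study's methods state fewer litters than embryos in each group, so some embryos shared a litter. The labels do not say which, litter could not be a term, and p values over embryos may be too small.

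The unmethylated tiles were the 39343 with a median level under 1% over the samples. The median reads per tile were 157 to 541 in control and 261 to 749 in EtOH-exposed libraries. Wilson intervals were computed at 95% and hold for counting error alone, because PCR copies were not marked. Context counts used other imprinted promoters. The alternatives were an overdispersion F test, limma 3.58.1 on log2 ratios of methylated to unmethylated reads with 0.5 added, other read, CpG, sample and window minimums, summed reads, CCGG sites left out, library covariates and subsets, a replicate block and the omission of each sample. Python 3.11.15 with numpy 2.4.6, scipy 1.17.1 and pandas 2.3.3 and R 4.3.3 were used.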

Additional observations from a re-analysis of the deposited data

Results flagged for a closer look

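Dixon's criterion was applied to 40 groups of 5 or 6 control values, which were promoters, internal minus host differences, named tiles and fragments, and 8 held a sample farther from the others than it allows. Chance marks about 1 in 20 groups, and the 8 share reads, since tiles and fragments lie within promoters.

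At the Inpp5f short transcript, control 1 read 73.96% where the next of 5 controls read 37.9%, a gap of 0.792 of the group's range. The same sample stood apart in the internal minus host difference (0.794 of the range), in the fragment at -637 to -570 bp, with 76.3% beside 37.8% (0.80 of the range), and in the tile at chr7:128688201-128688300, with 76.3% beside 44.7% (0.787 of the range). The promoter level had a 95% Wilson interval of 50.5 to 89.8%. At the Mcts2 promoter, control 2 read 79.7% where the next control read 48.3%, a gap of 0.667 of the range. It rested on a mean of 30 reads per CpG (95% Wilson interval 62.7 to 90.5%), and its fragment at -275 to -178 bp read 89.8% beside 49.3% (0.715 of the range). 

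Near 0, the Inpp5f host fragment at +274 to +278 bp read 5.26% in control 3 and at most 0.617% in 4 other controls (0.883 of the range). At the Blcap tile at chr2:157566101-157566200, control 1 at 2.10%, from 333 reads, stood above the other controls, down to 0.583%, a gap of 0.730 of the range. The controls had 205 to 691 reads there.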

How the results depend on the processing

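Of 374 alternative values, 345 kept their direction and their side of the threshold, and of 36 alternative counts of called member tiles 27 were within 1.5 times the 10 reported. Of the 36 counts, 22 came from the omission of 1 sample, and the 9 that moved were all among the other alternatives. Most of the 374 values were also omissions of 1 sample, and a value that stayed above the threshold was counted as kept. The 10 called member tiles became 0 with the overdispersion F test, 0 with limma (3 and 7 at a raw p under 0.05), 1 with a difference of 20 points, 21 of 51 with 3 samples per condition, 2 with the coverage coefficient as a covariate, 2 in the library group with 7 EtOH-exposed samples and 3 without the 4 libraries of lowest coefficient, an alternative chosen after seeing the data. Over all tiles the 1299 calls (1.14%) became 0 with the F test and limma, 101 (0.0883%), 4818 of 187376 (2.57%), 482 (0.421%), 1186 of 113850 (1.04%) and 380 of 114396 (0.332%) in the same order. When any 1 sample was left out, 8 to 14 member tiles were called, beside 993 to 1820 of all tiles (0.868 to 1.59%). With the covariate, the difference was 0.525 points at Mcts2, 3.64 at Nap1l5 and 1.93 at Zrsr1, and -9.84 at Nnat and -12.4 at the Inpp5f short transcript. In the library group it was -11.4, -15.3 and 4.56 points at Nnat, the Inpp5f short transcript and Nap1l5. Why these values moved was not tested.

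Leaving out 1 sample gave differences of -17.6 to -8.20 points at Mcts2 (exact permutation p 0.0433 to 0.272, and under 0.05 without control 6 or EtOH-exposed embryo 7 or 13), -29.7 to -19.9 at Nnat, -26.9 to -15.5 at the Inpp5f short transcript, -15.3 to -7.01 at Nap1l5 and -11.4 to -6.43 at Zrsr1 (exact p = 0.0311 without control 6). Internal minus host levels were 32.1 to 36.1 points for Nnat and Blcap, 21.4 to 25.1 for Inpp5f and 39.4 to 42.5 for Nap1l5 and Herc3. The excess of the EtOH-exposed spread was 1.03 to 8.04 points at Mcts2 (exact p = 0.0387 without control 2), 2.23 to 8.90 at Nnat, -0.643 to 8.61 at the Inpp5f short transcript, 4.01 to 9.72 at Nap1l5 and 2.99 to 6.12 at Zrsr1. At the Inpp5f short transcript it was -0.401, -0.643 and -0.0979 without control 3, 4 or 5. In the library group the spread was smaller in EtOH-exposed embryos, with -3.49, -0.860, -1.39 and -0.459 points at Mcts2, Nnat, Nap1l5 and Zrsr1, and without the 4 libraries it was -2.55 at Mcts2 and -0.217 at the Inpp5f short transcript.

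Replicate numbers did not pair the samples, since deviations of same-numbered samples correlated at -0.15 to 0.173 over 37944 tiles and 1 of 6 numbers matched its own best. With a replicate block over samples 1 to 6 of both groups, 18 member tiles were called among 5995 of 112445 tiles (5.33%), and 18 in these samples without the block among 3914 (3.48%). The blocked differences were -24.3 points at Mcts2 (exact p = 0.0625), -39.1 at Nnat (exact p = 0.0313), -31.0 at the Inpp5f short transcript (exact p = 0.0625, the smallest that 5 pairs allow), -27.2 at Nap1l5 (exact p = 0.125) and -14.9 at Zrsr1 (exact p = 0.0625). Internal minus host was 34.2 points for Nnat, 25.6 for Inpp5f and 35.9 for Nap1l5 with the block (exact p = 0.0625 for the last pair of values). In these samples without the block, Mcts2, Nap1l5 and Zrsr1 differed by -24.3, -26.6 and -14.9 points (exact p = 0.0303, 0.0108 and 0.0173). EtOH-exposed embryos 1 to 6 include 3 of the 4 libraries of lowest coefficient.

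A minimum of 20 reads could not be run for the Inpp5f short transcript and Nap1l5, nor a window of 500 bp for the former, because too few CpGs remained, and H13 and Commd1 gave values by summed reads only. The Nnat level of control 2 rested on 10 reads per CpG, and the 95% Wilson interval of the Inpp5f short transcript in control 1 ran from 50.5 to 89.8%.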

Other observations

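Within 1 kb of any RefSeq start of 12 other imprinted genes, 20 of 28 tiles had a lower level in EtOH-exposed embryos, weighted by coverage. Of these 28, 10 were called, all lower. Over all 114430 tiles, 64316 were lower and 1.08% were called lower. Of the 15 tiles at 30 to 70% in controls 8 were called, with a median difference of -10.9 points. Of all 5429 tiles in that range, 4588 were lower and 15% were called lower. At Snrpn 2 of 2 tiles were called, at Peg10 2 of 2, with a median of -30.1 points, at Slc38a4 2 of 3, at Plagl1 2 of 4, at Peg13 1 of 3 and at Peg3 1 of 1. At Airn 0 of 2, at Mest 0 of 1, at Impact 0 of 1 and at Grb10 0 of 9 were called, the last 1 of 9 lower, with a median control level of 1.09%. Kcnq1ot1 and Nespas, listed as Gnasas1 in RefSeq, had 0 tiles. The same 22 libraries underlie these counts, so the coverage coefficients given for the retrogenes apply to them too.

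A Nnat tile far from the start, at chr2:157561801-157561900 in a Nnat exon, also had fewer methylated reads by share, with 51.1 ± 4.77% in controls (SD, n = 5) and 33.6 ± 13.6% in EtOH-exposed embryos (SD, n = 15, exact permutation p = 0.0128). There 12 of 15 EtOH-exposed embryos lay below the lowest control, at 44.9%. This tile, 1 of 29 member tiles, held 2 CpGs and as few as 50 reads in an embryo. Its exact p is unadjusted, and its adjusted p was 0.844 in the overdispersion F test and 0.994 by limma. A tile in a Herc3 intron near another Herc3 start, at chr6:58872201-58872300, read 87.6 ± 2.77% in controls (SD, n = 5) and 90.4 ± 3.01% in EtOH-exposed embryos (SD, n = 15, exact permutation p = 0.0779), with 9 of 15 above the highest control.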
